A study of Mus musculus with 6 samples.

Results

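The cytosolic ribosomal proteins are the protein components of the ribosomes that translate nuclear-encoded mRNAs. Their genes were taken from the deposited table by name: Rps or Rpl followed by a number and at most one of the letters a, l, x or y, or Rplp0, Rplp1, Rplp2 or Rpsa. This gave 80 of the 16440 genes, of which 32 code for proteins of the small subunit and 48 for proteins of the large subunit, on 19 chromosomes. The rule used names only and no measured value. Fau, whose product is a fusion that carries a ribosomal protein, and the gene copies Rpl22l1, Rpl7l1 and Rpl36al lie outside it and are given separately.

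The RNA-seq compared 3 libraries of normal myeloid progenitors (normal MPs) with 3 libraries of c-Kit+ progenitors of acute promyelocytic leukaemia (APL), all from mice of the strain FVB N/J. Normal MPs were bone marrow cells sorted as Lin-Sca-1-c-Kit+. The APL cells were GFP-labeled and sorted for c-Kit. They came from the hMRP8-PML/RARα transgenic model, in which the human MRP8 promoter drives the fusion gene in myeloid cells, and they carried GFP from the MigR1 retrovirus and were expanded by transplantation into syngeneic mice. The labels give the normal MPs neither transgene nor virus, so transgene, virus and transplantation cannot be told apart as sources of a difference. The series describes the 3 libraries of a group as biological replicates, but no label names an animal and no age is given, so n below counts libraries and p-values measure the spread between them.

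Ribosomal proteins assemble with rRNA in the nucleolus into a small subunit, which reads the mRNA, and a large subunit, which joins the amino acids. Their mRNAs are among the most abundant of a growing cell and form the best known group of TOP mRNAs, which start with a tract of pyrimidines and whose translation responds to mTORC1. In blood formation these genes are known for Diamond-Blackfan anaemia, in which loss of one copy of a ribosomal protein gene impairs red cell production, and for the 5q- syndrome, in which one copy of RPS14 is lost.

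The start of a TOP mRNA can be read from the genome. The windows shown run from 20 bases before to 10 bases after a RefSeq start on GRCm38.p6, 5′ to 3′. Capitals mark an uninterrupted run of at least 8 C or T that reaches within 5 bases of the start. The first 5 genes carry such a run and the last 4 do not. Rpl13 has a stretch of C and T farther before the start, left in lower case, which this distance leaves out. The genes are shown as examples of both kinds. The 5 with a run had log2 fold changes between APL cells and normal MPs from -0.97 (Rpl14) to -0.37 (Rplp2). Without a run, Rpl36a had -1.05, Rpl37 -0.11 and Rpl13 0.09, and no fold is given for Rpl3l. The medians over all members with a promoter are given below. Rpl14 lies at chr9:120571497-120571526 on the plus strand, Rpl35 at chr2:39005122-39005151 on the minus strand, Rpl28 at chr7:4792945-4792974 on the plus strand, Rps6 at chr4:86857358-86857387 on the minus strand and Rplp2 at chr7:141447631-141447660 on the plus strand. Rpl36a lies at chrX:134585634-134585663, Rpl13 at chr8:123102330-123102359, Rpl37 at chr15:5116593-5116622 and the first of 2 starts of Rpl3l at chr17:24727806-24727835, all on the plus strand.
Rpl14: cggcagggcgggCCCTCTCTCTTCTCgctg
Rpl35: gaagtcggccccgCCCTTTCCTCTTTCTCT
Rpl28: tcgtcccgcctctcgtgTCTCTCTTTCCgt
Rps6: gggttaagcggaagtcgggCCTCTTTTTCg
Rplp2: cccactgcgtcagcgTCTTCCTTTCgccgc
Rpl36a: aggaagtgcacccaggcaccgcctataaac
Rpl13: gtcacttccctttcgcctgattttgattgg
Rpl37: gaagtagtttcctgggcggaagcttatcca
Rpl3l: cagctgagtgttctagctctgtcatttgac

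RefSeq promoters, each from 250 bases before to 50 bases after a start, were matched to 60 of the 80 members. A run of at least 8 C or T on the transcribed strand within 5 bases of the start was found in 23 of the 60 (38.3%), against 11.3% of 26965 other genes. The letters CCGGAAG, read on either strand anywhere in the promoter, were found in 26 members (43.3%) and in 9.85% of the other genes. The members with the run and the 37 without it had nearly the same median log2 fold change between APL cells and normal MPs, -0.55 and -0.54. A match or its absence describes only these letters in these windows.

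The fragment values of the table are estimated fragments scaled by a factor of each library, called scaled fragments here, and FPKM divides by transcript length as well. Before scaling, the libraries held between 20608715 and 28382785 fragments. MP library 3 stood apart for the genes described here: 78 of the 80 had their highest MP value in it, and calls that rest on it are given with and without it. The populations also differed in lineage. Of 13 erythroid markers tested, 12 were called lower in APL cells by the test described below (24.4% of all genes tested). The summed scaled fragments of the list lay between 86900 and 102800 in the MP libraries and between 4657 and 4849 in the APL libraries. Of 7 neutrophil progenitor markers, 5 were called higher (21.7% of all genes). Their sums were 317200 to 354900 in normal MPs and 802800 to 955600 in APL cells. Of 9 megakaryocyte markers, 7 were called lower (24.4% of all genes), with sums of 3502 to 4684 and 385 to 457. Kit, the sorting marker of both populations, had 10440 to 10970 scaled fragments in normal MPs and 5780 to 6033 in APL cells, and Ly6a, which codes for Sca-1, had at most 48.8 in any library. The part that cell composition has in the values below was not tested, and in bulk samples fewer cells of a type and less RNA per cell cannot be told apart.

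Ribosomal protein mRNAs took up a smaller part of the library in APL cells than in normal MPs. Values of single libraries are given in the order of their numbers. The 80 genes held 8.44%, 8.30% and 10.9% of all scaled fragments in normal MPs and 5.54%, 6.04% and 6.15% in APL cells. The means were 9.23% ± 1.49 (SD, n = 3) and 5.91% ± 0.329 (SD, n = 3), a ratio of MP to APL of 1.56, and the groups did not overlap. The two-sided exact permutation p was 0.1, and no smaller p is possible with 3 libraries per group. Without MP library 3, the highest of the 6, the ratio was 1.42. By FPKM, which weights short mRNAs more, the share was 25.9%, 26.1% and 29.7% in normal MPs and 16.4%, 17.7% and 17.6% in APL cells, again without overlap (exact permutation p = 0.1). Among the 100 genes with the highest mean FPKM there were 67 members in normal MPs and 56 in APL cells.

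**Figure D1:**
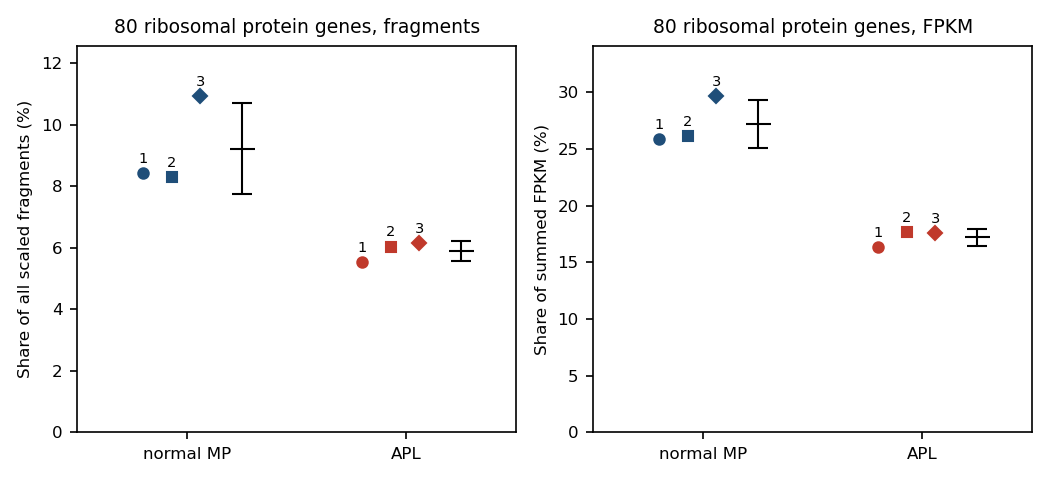
Share of each library taken by the 80 ribosomal protein genes, in percent of all scaled fragments (left) and of summed FPKM (right); each symbol is a library with its number, and the bar is the mean with its SD over 3 libraries. The APL libraries lie between 5.54% and 6.15% of fragments, all below the MP libraries, and MP library 3 is the highest at 10.9%.

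Both subunits had lower shares in APL cells, and the small subunit slightly more so. Small subunit genes held 3.95% ± 0.674 (SD, n = 3) of all scaled fragments in normal MPs and 2.46% ± 0.134 in APL cells, and large subunit genes 5.27% ± 0.814 and 3.46% ± 0.196. Of the ribosomal protein fragments alone, small subunit genes held 42.5%, 42.7% and 43.2% in normal MPs and 41.6%, 41.6% and 41.4% in APL cells. This share does not depend on how the libraries were scaled. The difference of 1.28 percentage points was small, but the groups did not overlap (exact permutation p = 0.1).

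Single genes were tested with limma on log2(scaled fragments + 1), and called at an adjusted p (Benjamini-Hochberg, over 14595 genes) under 0.05 with a fold change over 1.5. All 80 members passed the filter on low values, which asked for 1 scaled fragment or more in any 3 libraries, although Rpl3l passed it only through its APL libraries, so that its direction follows from the filter and its count is no result about the members. The log2 fold change of APL against MP was negative for 74 members and positive for 6, with a median of -0.55 against -0.10 over all genes tested. The call was made for 30 members lower in APL cells (37.5%, against 24.4% of all genes tested) and for 1 member higher, Rpl3l (1.25%, against 21.7%). At the adjusted p alone, 52 members were lower (65.0%, against 37.3%) and 1 was higher (29.7% of all genes). The groups did not overlap, with APL lower, for 56 members (70.0%, against 39.8% of all genes) and, with APL higher, for 1 (31.1% of all genes).

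The size of the difference rested in part on MP library 3. Without it the median log2 fold change was -0.37, and of the 79 members then tested 8 were called lower (10.1%, against 20.7% of all genes), a share below that of all genes. All 8 had also been called with the 6 libraries: Rpl13a, Rpl14, Rpl21, Rpl22, Rpl26, Rpl36a, Rpl9 and Rps26. The number lower at the adjusted p alone was again 52 (65.8%, against 35.3%), of which 51 were lower with all libraries too, and 5 members were then higher (6.33%, against 33.5%). The APL range lay below MP libraries 1 and 2 for 56 members and above them for 5. These counts were not made over all genes, so they are no result about the members. By FPKM, 26 of 78 members were called lower (33.3%, against 17.8%), of which 25 were also called by scaled fragments. At the adjusted p alone 53 were lower by FPKM (67.9%, against 38.5%). The limma test called 0 members higher by FPKM (19.3% of all genes), and 1, Rpl30, was higher at the adjusted p alone (33.4% of all genes). With an unadjusted p under 0.05 in place of the adjusted p these numbers were again 0 with the fold threshold and 1 without it. FPKM without MP library 3 gave 13 members lower (16.7%, against 12.2%) and 0 higher by limma (21.3% of all genes). With an unadjusted p under 0.05, 0 were higher with the fold threshold and 3 without it. The counts at an unadjusted p were not made over all genes, so they are no result about the members.

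**Figure D2:**
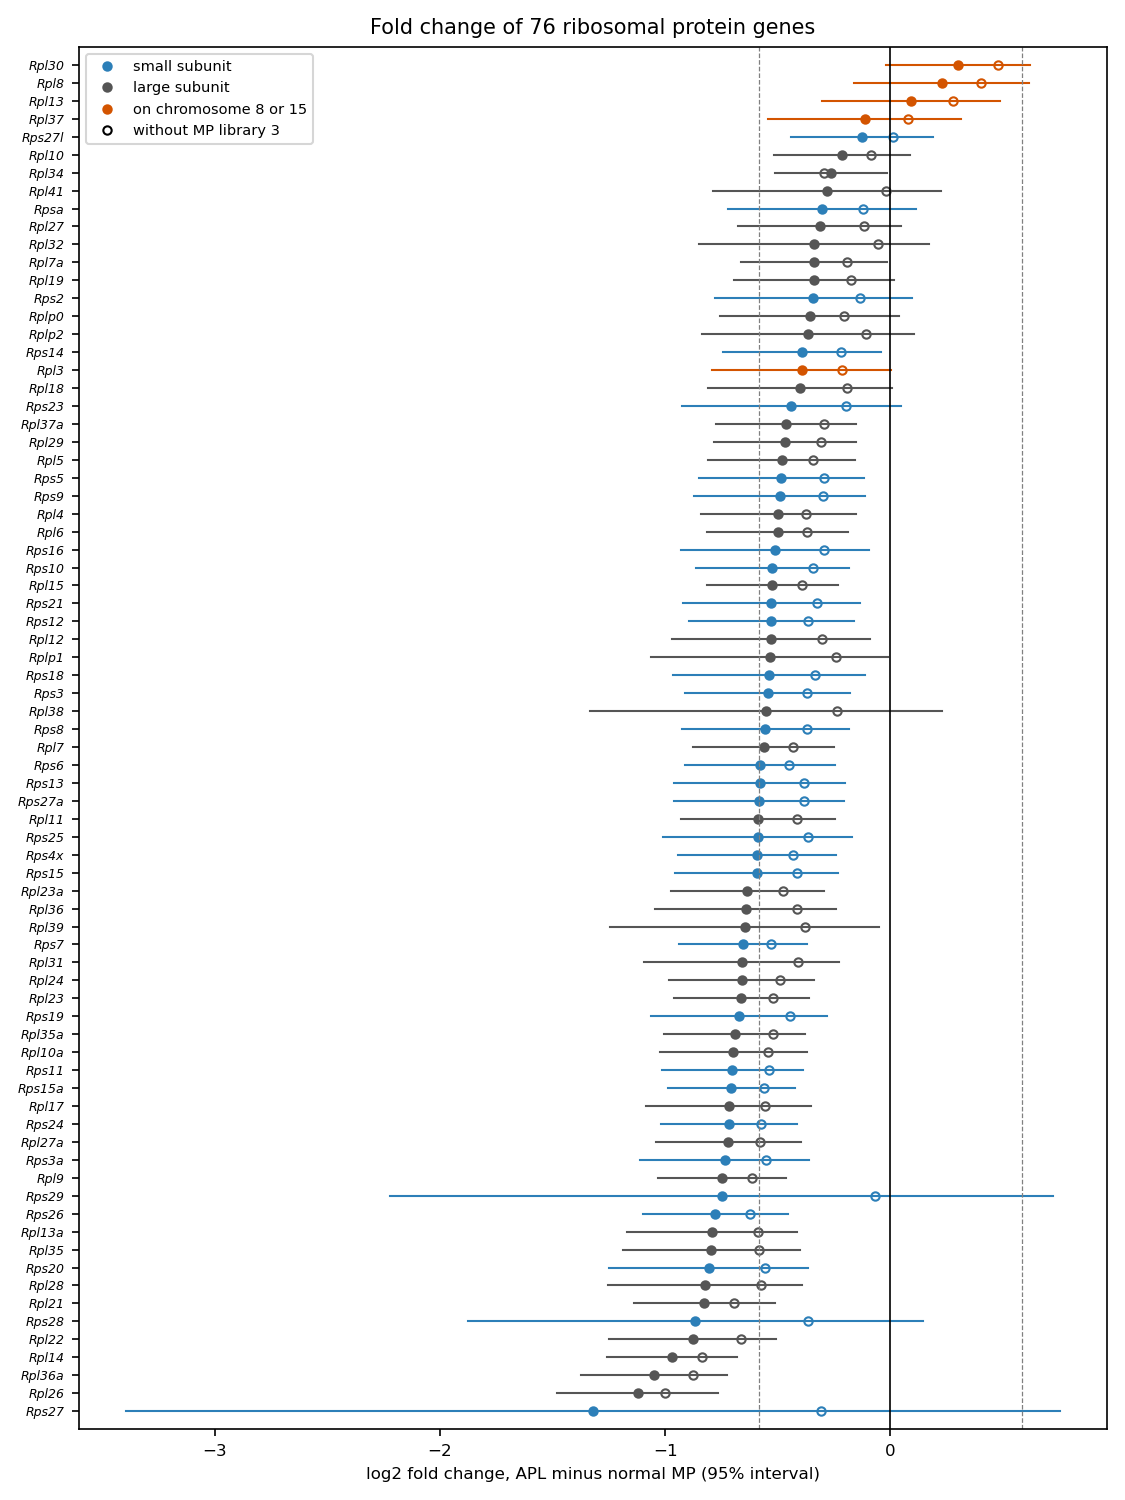
Log2 fold change of APL against normal MP for 76 ribosomal protein genes on the scale of log2(scaled fragments + 1), filled with all 6 libraries and with the 95% interval, open without MP library 3; dashed lines mark a fold of 1.5, and Rpl3l and Rpl39l, which are near 0 fragments in at least one group, are among those left out. Most genes lie left of 0, 4 of the 5 genes shown from chromosomes 8 and 15 are the highest in the plot, and the open point lies to the right of the filled one for 75 genes and to its left for Rpl34.

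All 32 small subunit members had negative fold changes, and 11 were called lower (24.4% of all genes) and 25 were lower at the adjusted p alone (37.3% of all genes). Without MP library 3, 31 were negative and 24 were lower at the adjusted p alone (35.3% of all genes). Then 1 was called lower, Rps26 (20.7% of all genes). Rps12, the member with the highest mean FPKM, had 44190, 41030 and 59570 scaled fragments in normal MPs and 29650, 33060 and 36720 in APL cells. Every MP library was above every APL library, and the log2 fold change was -0.53 ± 0.16 (SE, limma adjusted p = 0.017). Without MP library 3 it was -0.37.

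Rps20, a protein of the head of the small subunit, had one of the lowest fold changes of the members with a high mean FPKM. Its scaled fragments were 16190, 16010 and 26990 in normal MPs and 10270, 10280 and 12370 in APL cells, without overlap. The log2 fold change was -0.81 ± 0.19 (SE, limma adjusted p = 0.0053), and -0.56 without MP library 3, where the fold fell short of 1.5. Rps4x, the X-linked S4 gene, went from 55200 ± 11000 (SD, n = 3) scaled fragments in normal MPs to 36260 ± 2448 in APL cells, a log2 fold change of -0.59 ± 0.15 (SE, limma adjusted p = 0.0081). It stood at -0.43 and was not called without MP library 3, nor was it called by FPKM.

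Rpsa, which is both a small subunit protein and the laminin receptor precursor, was not called. Its values were 62210, 58470 and 87810 scaled fragments in normal MPs and 48130, 60130 and 58660 in APL cells. The groups overlapped, and the log2 fold change was -0.30 ± 0.18 (SE, limma adjusted p = 0.17).

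The genes mutated in Diamond-Blackfan anaemia lay among the other members. Of 11 small subunit genes in that list, 6 were called lower (24.4% of all genes) and 8 were lower at the adjusted p alone (37.3% of all genes), with a median log2 fold change of -0.72. Of 10 large subunit genes, 5 were called lower and 7 were lower at the adjusted p alone, with a median of -0.56. When MP library 3 was left out, 1 gene of each list was called lower (20.7% of all genes). At the adjusted p alone 8 and 7 were then lower (35.3% of all genes), and the medians were -0.45 and -0.40. Rps19, the gene most often mutated in the disease, had 12130, 12930 and 19930 scaled fragments in normal MPs and 8605, 9316 and 9670 in APL cells. Its groups did not overlap, and the log2 fold change was -0.67 ± 0.17 (SE, limma adjusted p = 0.0073). Without MP library 3 it was -0.45, short of a fold of 1.5, and the gene was not called.

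Rpl5 and Rpl11 bind MDM2 when they are free of ribosomes, together with 5S rRNA. Rpl11 had 23670, 22880 and 33330 scaled fragments in normal MPs and 16350, 17180 and 18920 in APL cells. It was called lower, at -0.59 ± 0.15 (SE, limma adjusted p = 0.0071), but not without MP library 3, where it stood at -0.42, nor by FPKM. Rpl5, whose locus overlaps Fam69a so that fragments could be divided between them, passed the adjusted p but not the fold, at -0.48 ± 0.14 (SE, limma adjusted p = 0.015). Rps14, the gene of the 5q- syndrome, had 22300, 23780 and 33150 scaled fragments in normal MPs and 18580, 21720 and 19250 in APL cells. Its groups did not overlap but lay close, at -0.39 ± 0.15 (SE, limma adjusted p = 0.048), and without MP library 3 the adjusted p was 0.055.

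In the large subunit, 19 of 48 members were called lower (24.4% of all genes) and 27 were lower at the adjusted p alone (37.3% of all genes). When MP library 3 was left out, 7 of 47 were called lower (20.7% of all genes). At the adjusted p alone 28 were then lower (35.3% of all genes). Rpl36a (Entrez gene 19982, chrX:134585653-134588062) had the lowest fold change of the members in the upper part by mean FPKM, called abundant here. It had 14300, 13230 and 19670 scaled fragments in normal MPs and 7272, 7172 and 8053 in APL cells, so that each APL library was far below each MP library. The log2 fold change was -1.05 ± 0.14 (SE, limma adjusted p = 0.00018), and -0.88 without MP library 3.

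Rpl28 and Rpl35 were also among the 5 abundant members with the lowest fold changes. Rpl28 had 14900, 14240 and 24460 scaled fragments in normal MPs and 9032, 9992 and 10400 in APL cells, a log2 fold change of -0.82 ± 0.19 (SE, limma adjusted p = 0.0042). Rpl35, a protein beside the exit of the peptide tunnel, had 12580, 11000 and 18220 in normal MPs and 7185, 7677 and 8761 in APL cells, a log2 fold change of -0.79 ± 0.17 (SE, limma adjusted p = 0.0031). Neither gene's groups overlapped. Without MP library 3 both kept an adjusted p under 0.05, at log2 fold changes of -0.57 and -0.58, just short of a fold of 1.5.

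Rpl14 and Rpl26 are named after their values were seen, because they were among the 8 members called lower without MP library 3. Rpl14 had 31680, 32340 and 42130 scaled fragments in normal MPs and 17200, 17880 and 18730 in APL cells. The log2 fold change was -0.97 ± 0.13 (SE, limma adjusted p = 0.00014), and -0.84 without MP library 3. Rpl26 had 1951, 2246 and 2702 in normal MPs and 1275, 863.8 and 1041 in APL cells, a log2 fold change of -1.12 ± 0.16 (SE, limma adjusted p = 0.00022). Its level per length was low for a ribosomal protein gene, at 266 and 129 FPKM, and its locus is shared with Gm15772, so its fragments may not be all its own.

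Rpl39, a very short protein of the tunnel wall and the member with the next highest FPKM after Rps12, was not called. Its scaled fragments were 10340, 9213 and 16970 in normal MPs and 7106, 5683 and 10450 in APL cells. APL library 3 lay above MP libraries 1 and 2, and the log2 fold change was -0.65 ± 0.26 (SE, limma adjusted p = 0.055).

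The P stalk, which recruits the GTPases of elongation, is built of Rplp0, Rplp1 and Rplp2, and none of the 3 was called. Rplp0 had 78470, 72980 and 103700 scaled fragments in normal MPs and 58290, 70520 and 68670 in APL cells. Its groups did not overlap, but the log2 fold change of -0.36 ± 0.17 (SE) missed the threshold (limma adjusted p = 0.099). Rplp1 stood at -0.54 ± 0.23 (SE, limma adjusted p = 0.068) and Rplp2, whose locus contains Snora52, at -0.37 ± 0.21 (SE, limma adjusted p = 0.15), and both overlapped between groups.

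Of the 5 abundant members with the highest fold changes, 3 lay below 0. Rpl10, which lies next to the peptidyl transferase centre of the ribosome and whose locus contains Snora70, had 38930, 39420 and 51130 scaled fragments in normal MPs and 36320, 36860 and 37480 in APL cells. The groups did not overlap, yet the log2 fold change was only -0.21 ± 0.13 (SE, limma adjusted p = 0.18), and -0.09 without MP library 3. Rpl41, the smallest ribosomal protein, stood at -0.28 ± 0.22 (SE, limma adjusted p = 0.29). Rpl32, whose locus overlaps Cand2 and Snora7a, stood at -0.34 ± 0.22 (SE, limma adjusted p = 0.21). The groups overlapped for both.

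The other 2 were Rpl13 and Rpl8, and these lie on chromosomes 8 and 15. Members on these chromosomes are described because earlier results of these data had shown higher expression along both of them. Over all genes tested the median log2 fold change was 0.48 for chromosome 8 (778 genes), 0.46 for chromosome 15 (563 genes) and -0.15 for the other chromosomes (13254 genes). The 6 members there had a median of 0.06, and the other 74 members a median of -0.57. The members thus lay below the median of their own chromosomes in both cases.

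Rpl8 (Entrez gene 26961, chr15:76904070-76906318), a protein near the catalytic centre, had 30930, 30830 and 44640 scaled fragments in normal MPs and 35490, 43320 and 44390 in APL cells. The groups overlapped through MP library 3, and the log2 fold change was 0.23 ± 0.17 (SE, limma adjusted p = 0.27). Without that library it was 0.40 ± 0.11 (SE, limma adjusted p = 0.0099). Rpl13 (Entrez gene 270106, chr8:123102349-123105242) had 29330, 29410 and 43390 in normal MPs and 30910, 38640 and 37920 in APL cells. Its log2 fold change was 0.09 ± 0.17 (SE, limma adjusted p = 0.66), and 0.28 ± 0.11 (SE, limma adjusted p = 0.048) without MP library 3, but it fell just below 0 when each library was scaled to the same total, by quantile normalization, or without MP library 1 or 2.

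Rpl30 (Entrez gene 19946, chr15:34440505-34443276) had 812.7, 914.4 and 1241 scaled fragments in normal MPs and 1179, 1197 and 1226 in APL cells, at 0.30 ± 0.14 (SE, limma adjusted p = 0.086). Its FPKM of 112 and 140 was low for a ribosomal protein gene and its locus is shared with Gm12191, so its value is uncertain. Rpl37 stood at -0.11 ± 0.19 (SE, limma adjusted p = 0.61) and Rpl3, a protein of the catalytic centre, at -0.39 ± 0.18 (SE, limma adjusted p = 0.074).

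The make-up of the ribosomal protein pool can be read within each library, where the scaling cancels. Rpl13, on chromosome 8, held 1.57%, 1.62% and 1.63% of the pool's fragments in normal MPs and 2.30%, 2.60% and 2.39% in APL cells. The 4 genes of chromosome 15, Rpl3, Rpl8, Rpl30 and Rpl37, held 4.69%, 4.84% and 4.81% in normal MPs and 6.02%, 6.38% and 6.46% in APL cells. Neither share overlapped between groups (exact permutation p = 0.1 for each), and MP library 3 did not stand apart in either. Among the chromosome 15 genes, Rpl3 was the one whose own share overlapped.

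Each library was also centred on its median ribosomal protein gene, an alternative added after the values were seen. This holds the members near 0 by construction, and it moved the median of all genes from -0.10 to 0.41. The shares of members and of all genes below therefore cannot be set against each other. Called higher were 4 members, Rpl3l, Rpl13, Rpl8 and Rpl30 (5.0%, against 38.3% of all genes), and called lower was 1, Rpl26 (1.25%, against 14.3%). Rpl3l again passed the filter only through its APL libraries. At the adjusted p alone 5 were higher (6.25%, against 41.6% of all genes), and 3 were lower, Rpl14, Rpl26 and Rpl36a (3.75%, against 14.8%). On this scale Rpl8 stood at 0.74 ± 0.17 (SE, limma adjusted p = 0.0012) and Rpl36a at -0.54 ± 0.17 (SE, limma adjusted p = 0.013).

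**Figure D3:**
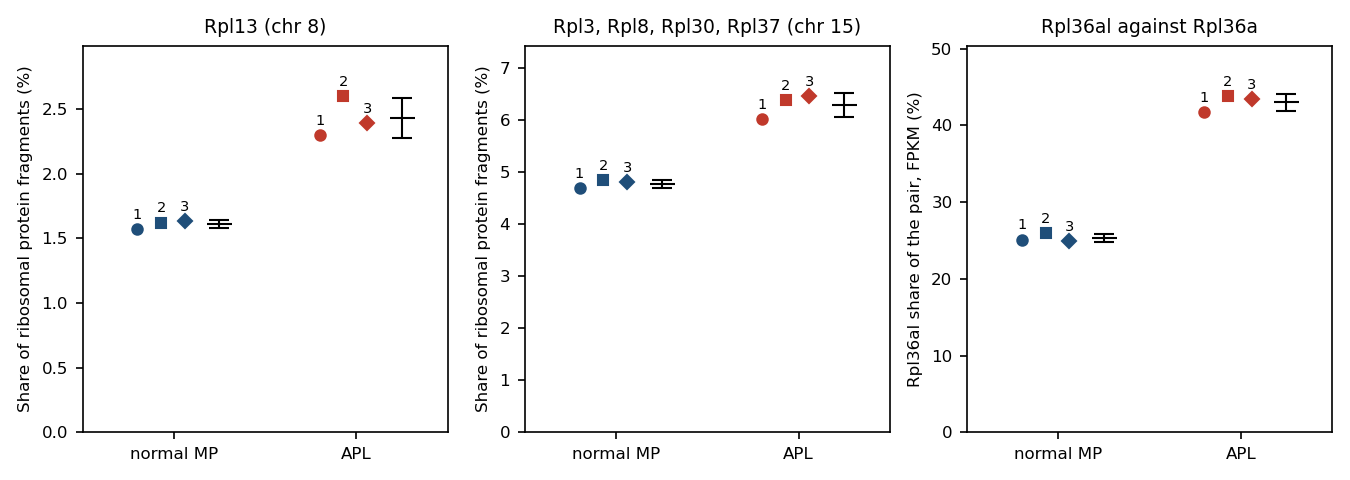
Shares within each library, in percent: Rpl13 of chromosome 8 (left) and the chromosome 15 genes (middle) of all ribosomal protein fragments, and Rpl36al of the summed FPKM of Rpl36al and Rpl36a (right); each symbol is a library with its number, and the bar is the mean with its SD over 3 libraries. In all 3 panels every APL library lies above every MP library, and the Rpl36al share goes from between 24.9% and 26.0% to between 41.7% and 43.8%.

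Rpl36al is an autosomal copy of Rpl36a that codes for a nearly identical protein. Its scaled fragments were 5687, 5521 and 7587 in normal MPs and 6248, 6697 and 7196 in APL cells, which overlapped, at a log2 fold change of 0.11 ± 0.12 (SE, limma adjusted p = 0.45). As a share of the summed FPKM of the pair, Rpl36al made up 25.1%, 26.0% and 24.9% in normal MPs and 41.7%, 43.8% and 43.4% in APL cells. The groups were far apart relative to their spread (exact permutation p = 0.1). This share carries over the lower values of Rpl36a given above, and the gene copies were named after their values were seen. Near-identical sequence could let fragments of one copy be counted for the other, and how such fragments were assigned is not given in the sources used here.

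Rpl7l1 made up 2.83%, 2.90% and 2.66% of its pair with Rpl7 in normal MPs and 3.63%, 3.49% and 3.27% in APL cells, without overlap (exact permutation p = 0.1). For Rpl22l1 and Rpl22, whose product represses Rpl22l1, the share of Rpl22l1 overlapped, at 72.6%, 80.3% and 75.6% in normal MPs and 82.6%, 82.9% and 76.5% in APL cells (exact permutation p = 0.2). Of the 4 genes tested in the list of copies and relatives outside the name rule, 2 were called lower, Rsl24d1, which acts in the assembly of the large subunit, and Rpl22l1. Neither call was made without MP library 3.

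Rpl3l, the striated muscle form of Rpl3, was the member called higher. No fragment was assigned to it in the 3 MP libraries, against 12.96, 18.2 and 16.04 scaled fragments in APL cells. No fold is given, because Rpl3l passed the filter only through its APL libraries. The level of Rpl3l per length was under 1 FPKM in every library, far below Rpl3 at 1472 and 1129 FPKM in normal MPs and APL cells. Rpl39l, a form known from testis, had between 0 and 4.51 scaled fragments in every library, too few for a fold. Rps27l, a copy of Rps27 that p53 induces, had 2226, 2134 and 2918 in normal MPs and 2113, 1957 and 2576 in APL cells, and overlapped, at -0.13 ± 0.14 (SE, limma adjusted p = 0.44), with the sign reversed without MP library 3.

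Mean FPKM over the 6 libraries was at least 400 for 71 members, between 1 and 400 for 7 and under 1 for 2. Several of the low ones share loci or sequence with other genes, as do 16 members in all, 8 of them with small nucleolar RNA genes. Rpl34 had between 243.9 and 330.6 scaled fragments, while Rpl34-ps1, listed at the same locus, had between 9317 and 18450, and how fragments were divided between the names was not tested. Rps27, listed with Gm9846, had 37.67, 140 and 602 scaled fragments in normal MPs and 36.74, 147 and 36.84 in APL cells. It gave the lowest fitted fold change of all members, -1.32, with the widest error (0.91, SE, limma adjusted p = 0.23), and no direction can be read from it.

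Ribosomal protein genes separated the libraries of a group as well as the groups. The log2 ratio of MP library 3 to the mean of MP libraries 1 and 2 was taken for genes with at least 10 scaled fragments in every library. It was positive for 77 of 78 members and for 7475 of all 11002 genes with that minimum. Its median was 0.54 for the members, against 0.12 for all these genes. APL library 3 to APL libraries 1 and 2 gave 0.16 for the members and 0.02 for all genes. By FPKM these medians were 0.40 for the members and 0.10 for all genes in normal MPs, and 0.07 and 0.00 in APL cells.

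The shortest members differed most. Dividing fragments by FPKM gives the transcript length that the table implies, and it was under 150 nt for 5 members: Rps28, Rpl38, Rpl39, Rps29 and Rps21. Their median log2 ratio of library 3 to libraries 1 and 2 was 0.93 in normal MPs and 1.02 in APL cells, against 0.53 and 0.15 for the other 73 members, and 0.81 and 0.24 for 19 other genes as short. By FPKM the 5 stood at 0.47 in normal MPs and 0.31 in APL cells. The other 73 members stood at 0.40 and 0.06 by FPKM, and the 19 other genes at 0.24 and -0.13.

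Rps29 showed this most clearly, with 4116, 2307 and 12770 scaled fragments in normal MPs and 2082, 1804 and 6788 in APL cells. Library 3 was the highest of each group, so that the error of the comparison was wide, at -0.75 ± 0.65 (SE, limma adjusted p = 0.33). Rps28 was similar, with 2894, 2156 and 7076 in normal MPs and 1500, 1462 and 3324 in APL cells, at -0.87 ± 0.44 (SE, limma adjusted p = 0.11). The groups overlapped for both, and 1 of the 5 short members, Rps21, was lower at the adjusted p alone, at -0.53 ± 0.17 (SE, limma adjusted p = 0.023).

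Across the 78 members, Spearman's rho between implied length and the ratio of library 3 was -0.51 in normal MPs and -0.42 in APL cells. By FPKM in normal MPs it was 0.10. The ratios of both groups had a rho of 0.43 with each other. These are descriptions over genes that share the same libraries and are not independent. What lies behind this dependence on implied length was not tested. Leaving out library 3 of both groups gave 18 of 78 members called lower (23.1%, against 20.6% of all genes) and 0 higher by limma (21.3% of all genes). With an unadjusted p under 0.05, 0 were higher with the fold threshold and 3 without it, which was not counted over all genes. At the adjusted p alone 60 were then lower (76.9%, against 34.4%) and 2 higher, Rpl8 and Rpl30 (2.56%, against 30.6%).

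**Figure D4:**
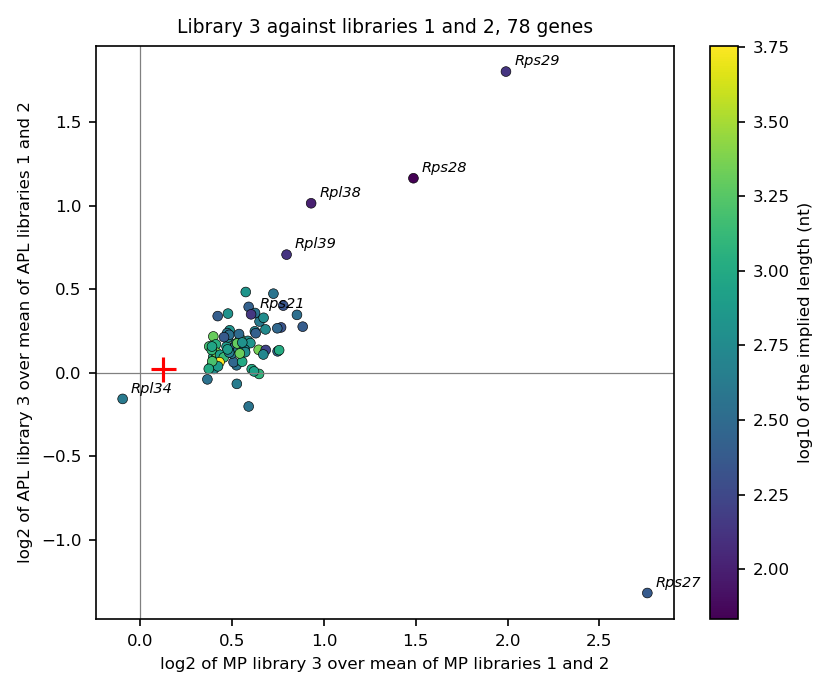
Log2 ratio of library 3 to the mean of libraries 1 and 2 within normal MPs (horizontal) and within APL cells (vertical) for 78 ribosomal protein genes in scaled fragments. Colour gives the log10 of the implied length, and the red cross is the median of 11002 genes. The short genes Rps29, Rps28, Rpl38 and Rpl39 lie at the upper right, most members lie to the right of the cross, and Rps27, which has few fragments, lies alone at the lower right.

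Genes that work with the ribosome were described by lists chosen with earlier results known. Their counts of calls stand beside the same 24.4% lower and 21.7% higher over all genes. Counts at the adjusted p alone stand beside 37.3% lower and 29.7% higher, and calls without MP library 3 beside 20.7% lower. Fau, the fusion gene named above, had 12960, 12830 and 21450 scaled fragments in normal MPs and 9693, 11260 and 11580 in APL cells. Its groups did not overlap. It passed the adjusted p but not the fold, at -0.50 ± 0.19 (SE, limma adjusted p = 0.042), so it was not called. Without MP library 3 it stood at -0.25.

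Of 13 elongation and termination factors, 6 were called lower and 1 higher, with a median log2 fold change of -0.39. The lowest called were Eif5a2, at -1.31 ± 0.22 (SE, limma adjusted p = 0.00071), and Eef2k, the kinase that inhibits elongation factor 2, at -0.98. Gspt2, a release factor, was the gene called higher, at 1.58 ± 0.09 (SE, limma adjusted p = 6.4e-07). Of 35 initiation factors, 7 were called lower by limma, or 4 without MP library 3, and 0 higher, with a median of -0.25, and the lowest was Eif4a2, a helicase of the cap complex, at -1.03 ± 0.07 (SE, limma adjusted p = 3.1e-06). At the adjusted p alone 18 of the 35 were lower (37.3% of all genes) and 0 higher (29.7% of all genes). At an unadjusted p under 0.05 the numbers were 18 and 1, which were not counted over all genes.

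Of 13 other TOP mRNAs tested, 4 were called lower and 1 higher, with a median of -0.37. Gas5, a non-coding host of small nucleolar RNAs, had 12140, 10910 and 11720 scaled fragments in normal MPs and 5793, 4743 and 5622 in APL cells, at -1.11 ± 0.09 (SE, limma adjusted p = 9.1e-06). Nap1l1, a histone chaperone, stood at -0.96 ± 0.10 (SE, limma adjusted p = 2.9e-05). Vim, which codes for vimentin, was the TOP mRNA called higher, at 1.60 ± 0.13 (SE, limma adjusted p = 5.9e-06). Neither Gas5 nor Nap1l1 rested on MP library 3, without which they stood at -1.10 and -0.89.

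Of 17 regulators of mTORC1 and of TOP mRNAs, 2 were called lower, Mycn and Mlst8, and at the adjusted p alone 10 were lower and 1 higher. Mlst8 stood at -0.60, and at -0.55 without MP library 3, where it was not called. Mycn, a MYC family factor, had 304, 364 and 438 scaled fragments in normal MPs and 3.54, 6.94 and 0 in APL cells, too few there for a firm fold. Of 6 chaperones dedicated to ribosomal proteins, 1 was called lower, Grwd1, at -0.66 ± 0.11 (SE, limma adjusted p = 0.00068), and 5 were lower at the adjusted p alone. Grwd1 stood at -0.56 without MP library 3 and was not called.

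Of 7 genes of the p53 response to free ribosomal proteins, 2 were called higher and 2 lower. Cdkn1a, which codes for the cell cycle inhibitor p21, had 207.9, 194.2 and 230.9 scaled fragments in normal MPs and 834, 1000 and 963 in APL cells, at 2.14 ± 0.11 (SE, limma adjusted p = 4.3e-07). Bax, a promoter of apoptosis, stood at 1.00 ± 0.12 (SE, limma adjusted p = 9e-05). Trp53 itself was lower, at -0.69 ± 0.09 (SE, limma adjusted p = 0.00013), as was its inhibitor Mdm4, while Mdm2 stood at 0.09 ± 0.07 (SE, limma adjusted p = 0.28).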

How the data were processed

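Normal MP and APL libraries (3 each) were sequenced from TruSeq preparations. One deposited table lists, for 16440 genes, FPKM values that the authors normalized to transcript length and mapped fragments, and fragment values, a signal of estimated fragments scaled per library. The submitters' processing notes name CASAVA 1.8, TopHat2 2.0.6 and mm10, which the loci follow. The paper's methods name STAR, mm9, HTSeq-count and DESeq2. The tool that made the table is not given in the sources used here. Dividing by the most frequent smallest step, 0.867 to 1.23 per library, gave whole numbers (within 0.01) for 81.5% to 85.9% of nonzero values, so no count test was used. Before scaling, libraries held 20608715 to 28382785 fragments.

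Genes with at least 1 scaled fragment in at least 3 libraries were tested with limma 3.58.1 (R 4.3.3; lmFit, eBayes with trend) on log2(value + 1), with Benjamini-Hochberg adjustment over all 14595 genes. For FPKM the same minimum and pseudocount were used. The fold changes understate those of low genes. Single shares were compared by a two-sided exact permutation test (smallest p 0.1). The test was checked on simulated data. Alternatives were 21 planned and 3 added later. Members, gene lists and the chromosomes shown were chosen with earlier results of these data known. Members named were those with the 5 lowest and 5 highest fold changes in the upper part by mean FPKM, the 3 highest by FPKM, the stalk proteins and Rpsa, tissue-restricted or duplicated forms, Rps19, Rpl5, Rpl11, Rps14 and those on chromosomes 8 and 15; from the other lists, up to 4 examples, the largest changes called in each direction. Rpl9, Rpl13a, Rpl14, Rpl21, Rpl22, Rpl26, Rpl34, Rpl38, Rps6, Rps21, Rps26, Rps27 and Rps29 were named after their values were seen, as were Mdm2, Fau and the gene copies. The values of some genes are not reported here. Promoter sequences and starts are from RefSeq (GRCm38.p6).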

Additional observations from a re-analysis of the deposited data

How the results depend on the processing

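Of 473 values of 27 named members under the alternatives, 389 kept their direction and side of the threshold. Of the rest, 47 newly passed it, 19 no longer passed it and 18 changed sign. This threshold did not include the fold of 1.5. Rpl10, at -0.386 by quantile normalization, lay short of that fold and was among the 47. Under other filters, pseudocounts, scalings and units the median log2 fold change of the members lay between -0.69 (quantile normalization) and -0.49 (median ratio scaling), and between -0.64 and -0.37 with 1 library left out. Centring on the members themselves brings it to -0.04 by construction. The difference in the summed share of fragments, -3.32 percentage points, lay between -3.78 and -2.46 with 1 library left out. The 30 members called lower became 51 by quantile normalization and 53 with libraries scaled to the same total. The latter moves the median of all genes from -0.10 to -0.23. They became 3 by limma's treat against a fold of 1.5 and 2 at a fold over 2. With 1 library left out they became 8 to 50, the lowest without MP library 3 and the highest without MP library 2. Shares over all genes were counted only for the settings where they are given above. The other counts of calls in this section are therefore no result about the members. The 1 called higher, Rpl3l, became 0 with a value of at least 1 in all libraries, which removes that gene, and 0 by FPKM with either pseudocount, and 0 to 1 with 1 library left out. At the adjusted p alone, the 52 lower became 38 to 61 with 1 library left out and the 1 higher became 0 to 5, 0 with a value of at least 1 in all libraries and 2 by median ratio scaling. Alternatives chosen after seeing the data gave, for members called lower, 18 without library 3 of both groups and 13 by FPKM without MP library 3. Centring on the median ribosomal protein gene, also chosen after seeing the data, gave 1 lower and 4 higher, or 3 lower and 5 higher at the adjusted p alone, and it turned the sign of named members whose fold change lay between the median of the pool and 0: Rpl10 0.30, Rpl3 0.12, Rpl32 0.17, Rpl37 0.40, Rpl41 0.23, Rpl5 0.031, Rplp0 0.16, Rplp2 0.15, Rps14 0.12, Rps27l 0.39 and Rpsa 0.21. Signs also turned for Rpl13 (-0.0035 by quantile normalization, -0.039 with the same total, -0.0031 to 0.279 with 1 library left out), and, with 1 library left out, for Rpl37 (-0.275 to 0.0783), Rps27l (-0.24 to 0.0137) and Rpl39l (-0.381 to 0.852). The cause was not tested.

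The libraries share the numbers 1 to 3 between groups. The correlation of same-numbered deviations was 0.11, 0.01 and 0.11 over 12534 genes, so the numbers were not taken as pairs. With the number as a replicate block, 33 members were called lower, and 66 were lower and 2 higher at the adjusted p alone. These counts were not made over all genes either. Among the members every MP library correlated best with the APL library of its own number, but APL library 3 correlated better with MP library 1 (0.35) than with MP library 3 (0.30).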
